A study of Rattus norvegicus with 8 samples.

Results

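The Zfp genes are a set of 136 zinc finger genes of the rat, out of 14506 named genes measured in perfused liver. A gene was taken as a member when its probe set carried a single symbol made of Zfp and a number, without Zfp36, whose product binds RNA through another kind of zinc finger. Symbols with letters after the number were not members. Of the members, 129 had 1 probe set and 7 had several, of which the brightest by its mean over 8 arrays was used. Membership rests on names, although the family was chosen with earlier results of these data known.

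Livers of male Wistar rats aged 6 to 10 weeks had been perfused with Krebs-Henseleit buffer, a salt solution that keeps an isolated liver alive, and total RNA was hybridised to 1-colour Affymetrix arrays. The normoosmotic group had been perfused at 305 mosm/L and the hypoosmotic group at 225 mosm/L, a difference that swells liver cells. Both groups carry the time point of 120 min and hold 4 arrays each. The labels do not state that each array is a different rat. The p-values here set each change against the scatter within these groups of 4 arrays, part of which may be technical. They may therefore not extend to other rats. All values are log2 expression as deposited. A change is the hypoosmotic mean minus the normoosmotic mean, also in log2 units. The design sets the hypoosmotic perfusate against the normoosmotic one.

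Most Zfp genes encode proteins with tandem C2H2 zinc fingers, small folds held by a zinc ion that read DNA bases. Many carry a KRAB domain, which recruits the corepressor Trim28 (also called KAP1) and, through it, enzymes that write repressive histone marks, often at transposable elements. Others carry a SCAN or BTB domain for pairing with partner proteins, and a few act in splicing, on ribosomes or as ligases for ubiquitin or SUMO. The shared name therefore marks a protein fold and not 1 pathway.

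The array medians lay between 4.05 and 4.16 over all probe sets. Hepatocyte markers were bright and alike in the groups, with array means of 12.2 in each normoosmotic sample and of 12.1 to 12.2 in the hypoosmotic ones. In whole liver, fewer cells of a type and less RNA per cell cannot be told apart. Of the markers fixed for Kupffer cells, endothelium, stellate cells, cholangiocytes, leukocytes, neutrophils and red cells, 0 passed the test at an adjusted p under 0.05 (limma). Of the 44 measured, 5 had an unadjusted p under 0.05 (limma), which 14.6% of all genes reached.

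Among the 136 members 3 fell, namely Zfp131, Zfp592 and Zfp830, and 0 rose at an adjusted p under 0.05 over all genes (limma). That is 2.21% of the members against 1.98% of all genes, of which 1.42% fell and 0.558% rose. The share of members that passed was therefore near the background. An unadjusted p under 0.05 was reached by 31 members, 18 of them higher and 13 lower, or 22.8% against 14.6% of all genes. Over all 14506 genes the split went the other way, with 957 higher and 1156 lower.

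The sequences before the start sites of the 3 members that fell are shown so that they can be set beside the values, with that of Zfp438, which had the smallest p among members whose values were higher and did not overlap. Each run holds the 250 bases before the start given by RefSeq on the assembly GRCr8, 5′ to 3′ on the strand of the gene, with each CG dinucleotide in capitals. Zfp131 lies at chr2:53485286-53485535 on the minus strand, Zfp592 at chr1:144376777-144377026, Zfp830 at chr10:68198653-68198902 and Zfp438 at chr17:57121387-57121636, the last 3 on the plus strand.
Zfp131: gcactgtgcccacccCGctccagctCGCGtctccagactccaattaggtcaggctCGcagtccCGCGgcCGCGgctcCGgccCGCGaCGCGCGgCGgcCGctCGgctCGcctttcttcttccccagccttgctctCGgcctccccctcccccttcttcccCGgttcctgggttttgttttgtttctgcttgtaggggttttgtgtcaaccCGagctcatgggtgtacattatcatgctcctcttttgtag
Zfp592: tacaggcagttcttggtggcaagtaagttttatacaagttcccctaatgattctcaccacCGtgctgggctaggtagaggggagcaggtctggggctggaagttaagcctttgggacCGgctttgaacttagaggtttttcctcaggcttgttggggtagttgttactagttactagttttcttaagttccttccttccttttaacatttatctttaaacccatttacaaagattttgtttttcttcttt
Zfp830: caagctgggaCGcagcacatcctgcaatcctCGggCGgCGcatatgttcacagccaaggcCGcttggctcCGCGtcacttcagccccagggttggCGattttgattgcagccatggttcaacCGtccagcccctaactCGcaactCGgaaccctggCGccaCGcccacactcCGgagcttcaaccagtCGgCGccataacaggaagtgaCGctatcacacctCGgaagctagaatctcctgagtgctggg
Zfp438: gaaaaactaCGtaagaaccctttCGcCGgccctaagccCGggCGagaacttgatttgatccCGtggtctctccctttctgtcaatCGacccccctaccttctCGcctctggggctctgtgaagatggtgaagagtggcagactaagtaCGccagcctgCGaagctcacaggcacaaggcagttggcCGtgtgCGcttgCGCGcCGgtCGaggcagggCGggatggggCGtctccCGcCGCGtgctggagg

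The 3 sequences of falling members were not alike in base composition. Zfp131 held 62.8% G and C with 21 CG dinucleotides and Zfp830 held 60.4% with 18, whereas Zfp592 held 41.6% with 2. Zfp438, whose values lay higher, held 62.0% with 21. Over the 115 members with an entry, the median was 56.8% with 13 CG dinucleotides, against 52.0% with 6 over all 27457 promoters in the table.

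Each promoter was searched on both strands for 7 motifs, none of which contains another. The core shared by the Nfat5 osmotic element and Nfat sites, TGGAAA, stood in 14.8% of member promoters and 19.5% of all, and in none of the 4 shown. The GC box GGGCGG stood in 44.3% of member promoters against 32.4% of all, Zfp830 and Zfp438 among them. The CCAAT box, CCAAT, stood in 34.8% against 34.3%, Zfp131 among them, and the TATA box, TATAAA, in 8.70% against 13.1%, Zfp592 among them. The E-box CACGTG stood in 6.96% of member promoters against 5.79% of all. For the cyclic AMP element TGACGTCA the shares were 3.48% and 1.70%, and for the Ets core CCGGAAGT 6.09% and 3.29%. A match describes the letters alone.

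Zfp131 (probe set 10821587) encodes a zinc finger protein with a BTB domain, a surface through which such factors pair. Its values were 6.49, 5.87, 6.29 and 6.22 in normoosmotic replicates 1 to 4 and 5.24, 5.36, 5.33 and 5.76 in hypoosmotic replicates 1 to 4. The groups did not overlap, although normoosmotic replicate 2 and hypoosmotic replicate 4 lay only 0.11 apart. The mean fell from 6.22 ± 0.26 in the normoosmotic group to 5.42 ± 0.23 in the hypoosmotic group (SD, n = 4 each). The change was −0.795 ± 0.15 (SE), its 95% interval ran from −1.12 to −0.47, and it passed the test (adjusted p = 0.0196 by limma). Its normoosmotic level was 1.74-fold the hypoosmotic one.

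Zfp592 (probe set 10708237) encodes a large zinc finger protein found in nuclear corepressor assemblies. Its normoosmotic values were 6.59, 6.61, 6.68 and 6.65, and its hypoosmotic values 5.92, 5.51, 6.11 and 6.11. The normoosmotic samples were nearly equal, and the hypoosmotic ones were all lower and more spread, with replicate 2 the lowest. The means were 6.63 ± 0.04 and 5.91 ± 0.28 (SD, n = 4 each), so that Zfp592 fell by 0.72 ± 0.14 (SE; adjusted p = 0.0193 by limma).

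Zfp830 (probe set 10736734), also known as Omcg1, encodes a nuclear protein linked to pre-mRNA splicing and needed for the early mouse embryo. Its values were 5.57, 5.52, 5.87 and 5.66 in normoosmotic samples and 4.90, 4.77, 4.96 and 5.31 in hypoosmotic ones. Every hypoosmotic sample lay below every normoosmotic one, with hypoosmotic replicate 4 the nearest. With means of 5.66 ± 0.15 and 4.99 ± 0.23 (SD, n = 4 each), Zfp830 fell by 0.67 ± 0.14 (SE; adjusted p = 0.0237 by limma).

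**Figure D1:**
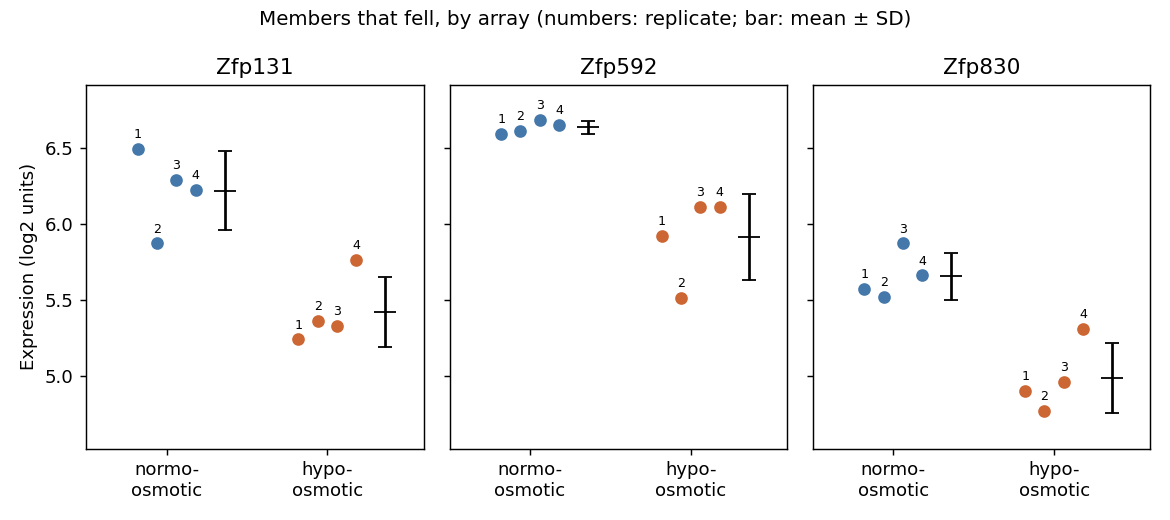
Expression of Zfp131, Zfp592 and Zfp830 in log2 units by group, with each array as a point numbered by replicate and a bar for the mean ± SD of 4 arrays. The 4 hypoosmotic values of each gene lie below its 4 normoosmotic values, and hypoosmotic replicate 4 is the nearest or joint nearest to the normoosmotic group in each.

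These calls were lost in several fits that left out 1 array. Without normoosmotic replicate 1, normoosmotic replicate 3 or hypoosmotic replicate 2, 0 members passed. The same 3 fits called 117, 108 and 81 of all genes, against 287 with all arrays. Without hypoosmotic replicate 1 or 3, Zfp592 was the 1 of the 3 that passed. Over 17 alternatives Zfp592 kept its call in 13, and Zfp131 and Zfp830 in 11 each, with adjusted p-values up to 0.065, 0.0724 and 0.0908. All changes stayed below 0, from −0.79 to −0.59 for Zfp592, −0.91 to −0.69 for Zfp131 and −0.78 to −0.60 for Zfp830. In these livers clock genes differed between samples of one group. A clock score, in which the mean of Dbp and Per3 is taken from the mean of Bmal1 and Npas2, was −2.81, 1.26, −3.39 and 1.49 in normoosmotic replicates 1 to 4 and lay between −0.52 and 1.38 in hypoosmotic samples. With this score in the fit 0 members passed, with adjusted p-values of 0.0587 for Zfp131, 0.0619 for Zfp592 and 0.0781 for Zfp830. Their changes in that fit were −0.69, −0.69 and −0.61, and 92 of all genes were called.

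**Figure D2:**
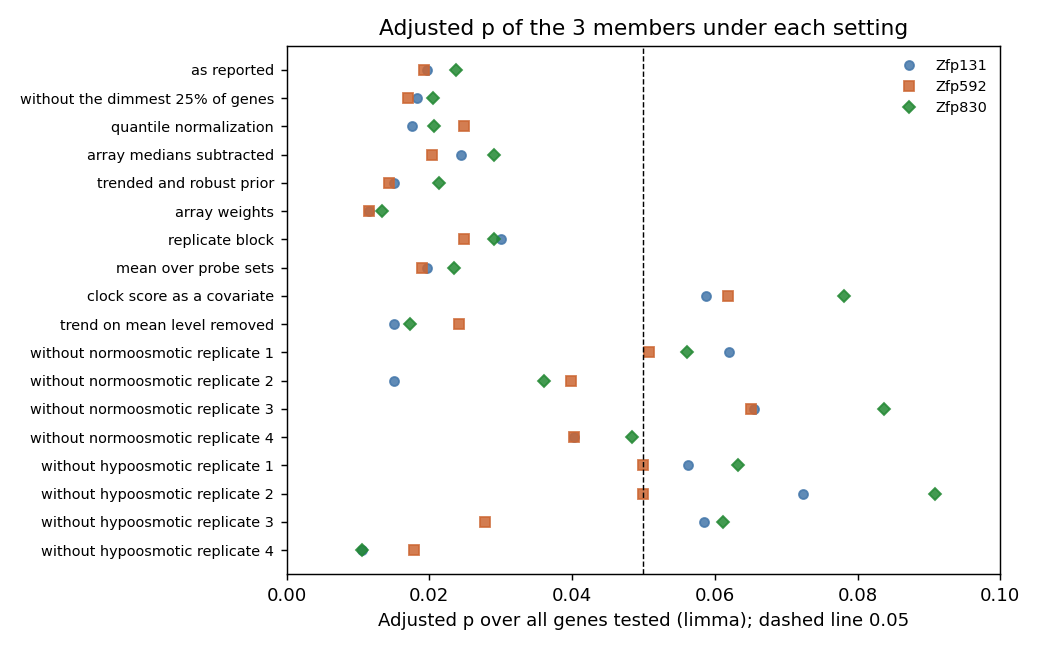
Adjusted p over all genes tested (limma) of Zfp131, Zfp592 and Zfp830, on the horizontal axis, under the reported setting and 17 alternatives, with a dashed line at 0.05. The 3 genes lie to the left of the line under each scaling and prior setting and to its right with the clock covariate and without normoosmotic replicates 1 or 3.

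The remaining 133 members did not pass the test. The changes of all 136 ran from −0.795 for Zfp131 to 0.74 for Zfp867, with 0 members at a 2-fold change or more, 7 at 0.50 log2 units or more and 75 under 0.20 in size. In 76 members the change was above 0 and in 60 below. The median change was 0.02, against 0.04 for all genes, and the lower and upper quartiles of the members were −0.14 and 0.19. The sign of the median is not settled, since it was −0.02 after subtraction of array medians, −0.0004 after quantile normalization and −0.01 after removal of the trend with signal.

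**Figure D3:**
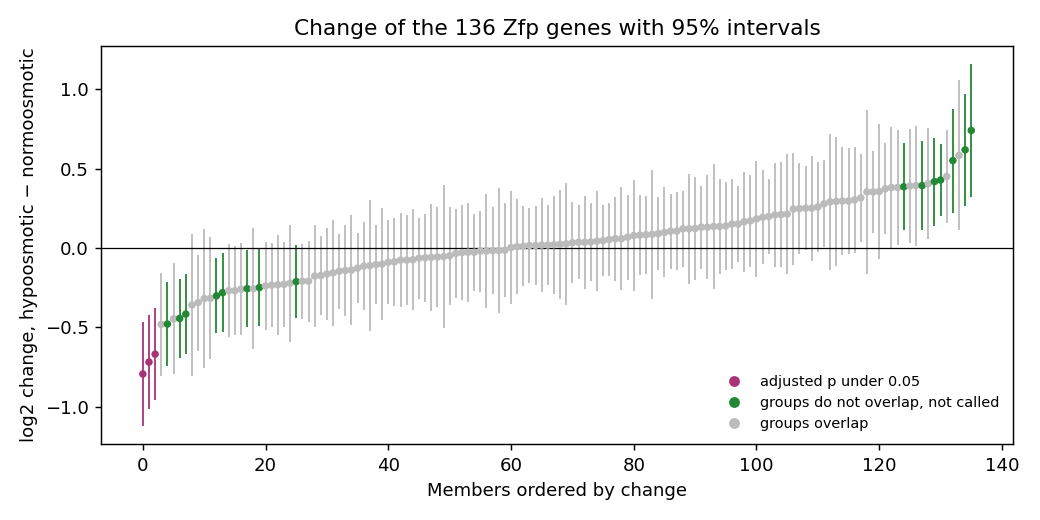
log2 change, hypoosmotic minus normoosmotic, of the 136 Zfp genes in order of size on the horizontal axis, with 95% intervals from limma. Purple points passed at an adjusted p under 0.05, green points had groups that do not overlap without passing, and grey points had overlapping groups. The 3 purple points are the lowest of the series.

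Groups that do not overlap, with all 4 values of one group beyond all 4 of the other, were seen in 18 members, or 13.2% against 8.27% of all genes. Of these, 7 lay higher in hypoosmotic samples (5.15% against 3.21%) and 11 lower (8.09% against 5.05%). The 3 members that fell are among the 11. The other 15 did not pass the test over all genes and are given by their values.

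Among the members lying higher, Zfp867 (probe set 10743144) had the largest change. It read 3.43, 3.79, 3.14 and 3.56 in normoosmotic samples and 4.25, 3.81, 4.04 and 4.78 in hypoosmotic ones, a change of 0.74 ± 0.19 (SE; limma, adjusted p = 0.0717). The groups touched within 0.02 units, at normoosmotic and hypoosmotic replicate 2. Zfp799 had a change of 0.62 ± 0.16 (SE) on a dim signal, with 2.63 ± 0.32 against 3.25 ± 0.22 (SD, n = 4 each; adjusted p = 0.0727). It passed in 3 of 16 alternatives, among them the fit without normoosmotic replicate 4.

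Zfp438 (probe set 10795599) was the most even of these genes. Its normoosmotic values were 3.72, 3.64, 3.50 and 3.57, and its hypoosmotic ones 4.04, 4.10, 4.07 and 3.93. The groups were 0.21 apart, and the change was 0.43 ± 0.11 (SE; limma, adjusted p = 0.0573). It passed when the dimmest 25% of genes were left out and with array weights. Zfp422, a bright member, had normoosmotic values of 6.35, 6.53, 6.39 and 6.04 and hypoosmotic values of 6.70, 6.90, 6.65 and 7.26, with a change of 0.55 ± 0.15 (SE; adjusted p = 0.0846). Its highest value, in hypoosmotic replicate 4, stood 0.36 above the next.

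Zfp612, Zfp46 and Zfp710 completed the members lying higher, with changes of 0.42, 0.39 and 0.39 and adjusted p-values of 0.124, 0.151 and 0.150 (limma). Their groups were close together. The highest normoosmotic and lowest hypoosmotic values were 6.13 and 6.15 for Zfp612, 5.0 and 5.03 for Zfp46, and 4.37 and 4.40 for Zfp710.

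Among the members lying lower without passing, Zfp566 had the largest change. It read 4.15, 4.07, 4.30 and 4.29 in normoosmotic samples and 3.92, 3.8, 3.49 and 3.68 in hypoosmotic ones, a change of −0.48 ± 0.12 (SE; limma, adjusted p = 0.0629). Removal of the trend with signal, added after seeing the data, brought it to an adjusted p of 0.0446. Zfp276 read 6.16, 6.12, 6.37 and 6.27 against 5.88, 5.57, 5.86 and 5.83, a change of −0.445 ± 0.12 (SE; adjusted p = 0.0682). Its hypoosmotic replicate 2 stood apart from the other 3, and the change was −0.37 without that array.

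Zfp451, which encodes a ligase that builds SUMO chains, read 4.96, 5.08, 4.96 and 5.23 in normoosmotic samples and 4.65, 4.49, 4.6 and 4.82 in hypoosmotic ones. All 4 hypoosmotic values were lower, and the change was −0.42 ± 0.12 (SE; limma, adjusted p = 0.0863). Zfp652, a partner of corepressors of the Eto family, had a change of −0.30 (adjusted p = 0.2). For Zfp638, a nuclear matrix protein that takes part in silencing retroviral DNA, it was −0.26 (adjusted p = 0.311). Zfp653, Zfp335 and Zfp637 had changes of −0.28, −0.25 and −0.21 with adjusted p-values between 0.265 and 0.400. Zfp335, needed for neural progenitors, was nearly constant in normoosmotic samples, at 4.98, 4.98, 5.02 and 5.02, against 4.55, 4.8, 4.94 and 4.71.

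A further 14 members had an unadjusted p under 0.05 although their groups overlapped, 11 of them with changes above 0 and 3 below, and are named after their values were seen. The share of all genes that met both conditions was not worked out, so these counts have no background. The 11 were Zfp184, Zfp202, Zfp347, Zfp39, Zfp426, Zfp455, Zfp641, Zfp763, Zfp819, Zfp865 and Zfp9, with changes of 0.28 to 0.58 and adjusted p-values of 0.116 to 0.341 (limma). Zfp39 read 5.02, 4.96, 4.89 and 5.34 against 5.72, 5.59, 5.43 and 5.27, and its groups overlapped by 1 sample of each. The 3 below 0 were Zfp24, Zfp260 and Zfp598. Zfp24 read 6.71, 6.70, 6.67 and 6.40 against 5.89, 6.11, 5.97 and 6.58, with hypoosmotic replicate 4 inside the normoosmotic range. In Zfp260 it was normoosmotic replicate 2 that stood low, with 6.84, 6.05, 6.77 and 6.62 against 6.29, 6.06, 5.98 and 6.16.

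**Figure D4:**
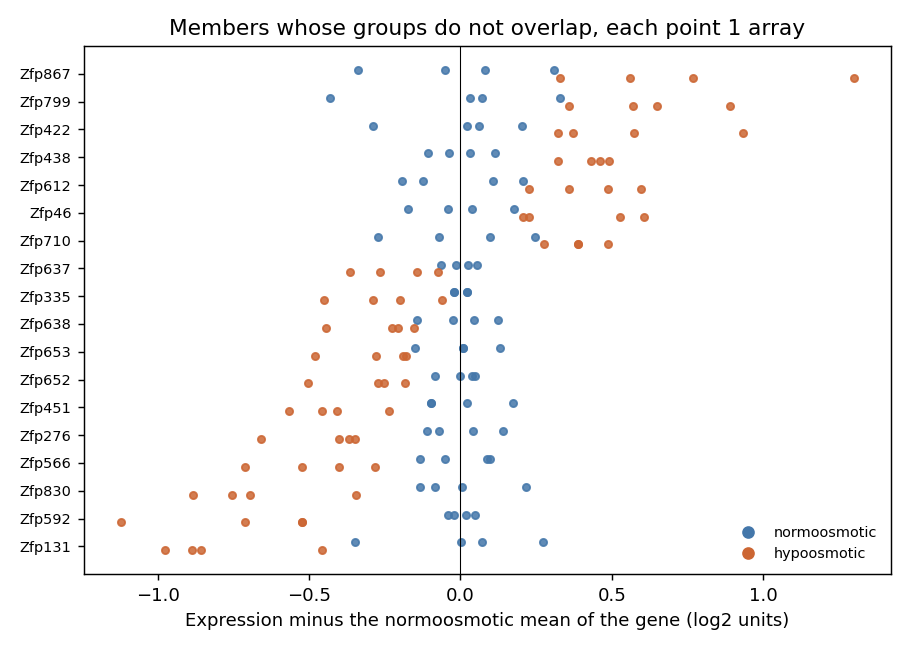
Expression of the 18 members whose groups do not overlap, each value minus the normoosmotic mean of its gene in log2 units, with 1 point per array. The upper 7 genes lie higher in hypoosmotic samples and the lower 11 lie lower, and Zfp131, Zfp592 and Zfp830 at the bottom are the 3 that passed the test.

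The change of a member moved with its signal. Members were split by their mean over all 8 arrays into 46 dim ones up to 3.90, 45 in the middle up to 5.05 and 45 bright ones up to 8.12. The median change was 0.09, 0.01 and −0.08, and 35, 24 and 17 members lay above 0. All genes in the same ranges of signal had medians of 0.07, 0.05 and −0.01, with 69.2%, 60.8% and 47.9% above 0, so the direction was shared with genes in general. The members had 76.1%, 53.3% and 37.8% above 0.

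The 3 that fell were all in the bright group. That group held 6 of the 11 members lying lower without overlap, and the dim group held 0 of them. All genes differed by signal in the same direction, with 10.2% lying lower without overlap in the bright range and 0.604% in the dim one. In the middle group 5 of 45 members lay lower without overlap, against 2.7% of all genes in that range. No test of these counts was made. No detection call was used. In all 23 members lay in the dimmest 25% of genes and 113 above it. With those dimmest genes left out, 1 member, Zfp438, was called higher (limma, adjusted p = 0.0474) and the same 3 lower.

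**Figure D5:**
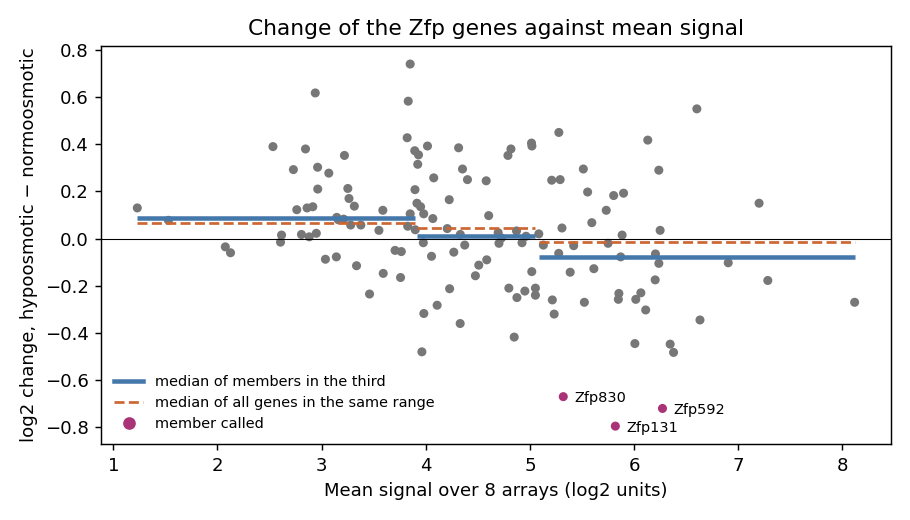
log2 change of the 136 Zfp genes, hypoosmotic minus normoosmotic, against the mean signal over 8 arrays in log2 units, with the members that passed in purple. Blue lines give the median change of members in 3 ranges of signal (0.09, 0.01 and −0.08) and dashed lines that of all genes in the same range (0.07, 0.05 and −0.01).

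The median of the 136 values was 4.33, 4.40, 4.48 and 4.43 in normoosmotic replicates 1 to 4 and 4.55, 4.44, 4.37 and 4.49 in hypoosmotic ones. The groups overlapped. For the bright members the median was 5.91, 5.83, 5.87 and 5.98 in normoosmotic samples against 5.84, 5.64, 5.74 and 5.93 in hypoosmotic ones, which also overlapped.

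Members with a known particular role were listed by name, and 12 of the 15 listed were measured. Zfp42, Zfp64 and Zfp91 had no probe set with a single matching symbol and are not analysed here. None of the 12 passed the test over all genes (limma), and 2 of them, Zfp598 and Zfp335, had an unadjusted p under 0.05. Their changes lay between −0.345 and 0.29.

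Zfp598, the ubiquitin ligase that marks collided ribosomes, read 6.72, 6.76, 6.95 and 6.79 in normoosmotic samples and 6.66, 6.12, 6.72 and 6.34 in hypoosmotic ones, a change of −0.345 (95% interval −0.65 to −0.04; adjusted p = 0.266 by limma). The groups overlapped at 6.72. Zfp622, which helps to mature the large ribosomal subunit, had a change of −0.11 with an interval of −0.36 to 0.15. Its other probe set had a change of 0.02.

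Zfp207, which helps chromosomes attach to the spindle and had the highest signal of the members, read 8.38, 8.0, 8.21 and 8.42 against 8.12, 7.96, 7.76 and 8.09. The groups overlapped, and the change was −0.27 (interval −0.55 to 0.01; adjusted p = 0.365 by limma). The promoter factors Zfp148 and Zfp143 had changes of −0.23 (interval −0.50 to 0.04) and 0.035 (−0.20 to 0.27). Zfp143 was narrow in normoosmotic samples, at 6.24, 6.21, 6.26 and 6.22, and ran from 6.15 to 6.46 in hypoosmotic ones. Its sign turned after subtraction of array medians and without hypoosmotic replicate 4.

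Zfp281, a regulator of pluripotent cells, had a change of 0.15 (interval −0.13 to 0.43), and Zfp217, which is amplified in some tumours, one of 0.19 (−0.10 to 0.49). Zfp57, which guards DNA methylation at imprinted regions, read 4.21, 4.40, 4.79 and 4.43 in normoosmotic samples and 5.12, 4.72, 4.56 and 4.41 in hypoosmotic ones. The groups overlapped, and the change was 0.245 with an interval of −0.11 to 0.60. For Zfp423, a factor of fat cell precursors, the change was 0.15 and for Zfp346, which binds double-stranded RNA, −0.075, with a sign that turned without hypoosmotic replicate 2. Zfp110, which binds the neurotrophin receptor p75, had a change of 0.29 (−0.14 to 0.72). The other bright members, Zfp266 and Zfp800, had changes of −0.18 and −0.10 with intervals that included 0.

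Members varied more among hypoosmotic than among normoosmotic samples. The median SD was 0.16 in normoosmotic and 0.21 in hypoosmotic samples, against 0.17 and 0.18 over all genes. In 83 members, or 61.0%, the hypoosmotic SD was the larger, against 53.9% of all genes. The widest members were Zfp866, Zfp819 and Zfp189, each wide in hypoosmotic samples.

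Zfp866 read 3.07, 3.22, 2.77 and 3.11 in normoosmotic samples and 3.23, 3.66, 2.62 and 4.07 in hypoosmotic ones. Zfp819 read 3.30, 3.65, 3.73 and 3.48 against 3.43, 4.08, 4.22 and 4.76, a change of 0.58 ± 0.22 (SE; limma, adjusted p = 0.221). Hypoosmotic replicate 4 was the highest in both. It was also the highest in Zfp189, whose values were 4.72, 4.41, 4.44 and 4.47 against 3.94, 3.71, 4.05 and 4.90. In that gene hypoosmotic replicates 1 to 3 lay below all normoosmotic samples and replicate 4 above them, and the change went from −0.36 to −0.61 without replicate 4 (adjusted p = 0.476 and 0.0352).

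Zinc finger genes often stand in clusters. In the RefSeq order of protein-coding genes, 27 members stood directly beside another member, in 11 runs of 2 to 4 genes. In 6 of the 11 runs all changes had one sign, a count that was not tested or set against genes that are not neighbours. Zfp566 and its neighbour Zfp260 had changes of −0.48 and −0.45, while Zfp382, next in the same run, had 0.08. Zfp24, a SCAN domain factor, and its neighbour Zfp35 had −0.48 and −0.32. Of the neighbours, named after their values were seen, 0 passed the test (limma).

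The corepressor machinery that KRAB zinc finger proteins recruit was measured in 25 of 32 listed genes. None passed by limma at the adjusted threshold, while 6 reached an unadjusted p under 0.05, all of them lower. These 6 are 24.0% of the measured list, against 14.6% of all genes. The changes lay below 0 in 22 of the 25, with a median of −0.16 against 0.04 for all genes. Their median signal was 5.84, against 4.39 for the members, and lies in the bright range in which all genes had a median change of −0.01. In 5 of them, or 20.0%, the groups did not overlap, all lower, against 5.05% of all genes and 10.2% of all genes in that bright range.

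Trim28 itself read 6.90, 7.11, 7.18 and 7.09 in normoosmotic samples and 6.88, 6.66, 6.60 and 6.67 in hypoosmotic ones. The groups were 0.02 apart at replicate 1 of each, and the change was −0.37 ± 0.11 (SE; limma, adjusted p = 0.124). Hdac2, a histone deacetylase, and Morc3, which compacts silenced chromatin, had changes of −0.42 and −0.49 with adjusted p-values of 0.0573 and 0.0727, and both were named after their values were seen. Setdb1, the histone methyltransferase that Trim28 recruits, is not analysed here.

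Zinc handling genes, the metallothioneins and zinc transporters, were all measured, 28 of 28. Of these, 1 rose and 0 fell, against 0.558% and 1.42% of all genes. The 1 was Slc30a2, a transporter that loads zinc into vesicles. It read 3.76, 3.66, 3.65 and 3.53 in normoosmotic samples and 4.03, 4.51, 4.2 and 4.6 in hypoosmotic ones, a change of 0.685 ± 0.14 (SE; limma, adjusted p = 0.0227). All hypoosmotic values were higher, and the call was lost with the clock covariate and when normoosmotic replicate 1, 3 or 4 or hypoosmotic replicate 2 was left out (adjusted p up to 0.0883). Mtf1, the zinc sensor that drives metallothionein transcription, had a change of −0.04 with an interval of −0.30 to 0.22, and its sign turned in 4 of 17 alternatives. The list's median change was 0.055, against 0.04 for all genes. An unadjusted p under 0.05 (limma) was reached by 4 of the 28, against 14.6% of all genes.

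A further 52 zinc finger genes had related symbols (Zbtb, Zscan or Zkscan with a number, or Zfp with letters after the number). Of these, 4 fell and 0 rose (limma), against 1.42% and 0.558% of all genes. Groups did not overlap in 14 of the 52, 4 higher and 10 lower, against 8.27% of all genes. An unadjusted p under 0.05 (limma) was reached by 16, against 14.6% of all genes. Zfp36l1 and Zfp36l2, which encode proteins that bind AU-rich mRNA and speed its decay, fell by 0.925 ± 0.12 and 0.85 ± 0.14 (SE; adjusted p = 0.00248 and 0.00936). The normoosmotic values of Zfp36l1 ran from 10.98 to 11.39 and the hypoosmotic values from 10.24 to 10.39, so the groups lay well apart. The BTB factor genes Zbtb2 and Zbtb1 fell by 0.73 ± 0.12 and 0.575 ± 0.13 (adjusted p = 0.0111 and 0.0381). Zfp36l1, Zfp36l2 and Zbtb2 kept their calls in all 17 alternatives, and Zbtb1 in 8, with its call lost under the replicate block, with the clock covariate and without each array but normoosmotic replicate 2 (adjusted p 0.0551 to 0.113). The 52 genes had a median change of −0.02, against 0.02 for the 136 members, and no test of that difference was made.

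Of the 7 members with several probe sets, none passed the test at any probe set over all probe sets (limma). The probe sets of Zfp507 pointed opposite ways, with changes of −0.14 and 0.16. The 3 probe sets of Zfp292 had changes of −0.02, −0.02 and −0.16, and the pair of Zfp958 had −0.14 and −0.045. The values of the pair of Zfp101 probe sets gave the same mean and change, 1.23 and 0.13, at the dim end of the array.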

How the data were processed

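The authors deposited log2 expression values for 27596 probe sets on 8 arrays. Per the submitters' processing notes, Transcriptome Analysis Console 4.0 was used. How background, summarisation and normalization were done is not given in the sources used here. That the scale is log2 was read from the values, 0.88 to 13.26. Arrays have no read depth, so 4 arrays per group limit the precision.

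The platform annotation gave 1 symbol for 15310 probe sets, several for 323 and none for 11963, which stay unnamed. RefSeq's table for GRCr8 supplied current symbols by gene ID (15279 matched), and the brightest probe set of each gene gave 14506 genes. Groups were compared with limma 3.58.1 in R 4.3.3 (lmFit, eBayes, two-sided), with Benjamini-Hochberg adjustment over all genes and calls at 0.05. The fit was tested on simulated data.

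The members, lists and tests were chosen with earlier results of these data known. Named genes are called members, the 8 largest uncalled rises and falls without overlap, the 5 brightest, the 3 widest and 15 with known roles, and called list genes with Trim28, Setdb1 and Mtf1. Alternatives were a filter on the dimmest 25%, quantile normalization, median subtraction, another prior, array weights, a replicate block, averaged probe sets, a clock covariate, each array left out and a threshold of 0.1. Removal of a loess trend was added after seeing the data. For 115 members RefSeq gave a promoter, the first listed where several were. Protein sequences were not used here.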

Additional observations from a re-analysis of the deposited data

Results flagged for a closer look

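Zfp276 read 5.57 in hypoosmotic replicate 2, apart from the other hypoosmotic samples, which lay between 5.83 and 5.88. Its gap to the nearest of them was 0.839 of the range of the 4, above Dixon's 95% critical value of 0.829. Among the 34 named members 68 groups of 4 were examined and 1 stood out, where chance gives about 1 in 20.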

How the results depend on the processing

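The count of 3 members called was 6 with array weights, 0 with the clock score as a covariate and 10 at an adjusted p under 0.1, and between 0 and 5 with each array left out. For all genes the count of 287 was 92 with the clock score, 601 at an adjusted p under 0.1 and between 81 and 365 with each array left out. Of the corepressor genes 0 were called, against 1 without the dimmest 25% of genes, 2 with array weights, 1 after removal of the trend with signal, 4 at an adjusted p under 0.1 and 0 to 2 with each array left out. The count of 1 zinc handling gene was 0 with the clock score and 0 to 1 with each array left out. The 4 other zinc finger genes became 7 with array weights and 10 at an adjusted p under 0.1, and 3 to 4 with each array left out. The median change of the members lay between −0.02 and 0.05 over its 17 alternatives, within the spread of array medians (SD 0.08).

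Zfp143 turned to −0.0075 after subtraction of array medians and ran from −0.0292 to 0.0742 with each array left out, below 0 without hypoosmotic replicate 4. Zfp346 ran from −0.2125 to 0.0142, above 0 without hypoosmotic replicate 2. Mtf1 turned to 0.0083 after quantile normalization, 0.0154 with the clock score and 0.0006 after removal of the trend, and ran from −0.1258 to 0.01 with each array left out, above 0 without normoosmotic replicate 3. The other changes of named members kept their sign, and the cause of the turns was not tested. Whether the replicate number pairs the samples is not stated. Deviations of same-numbered arrays correlated at 0.03 to 0.17, and 2 of 4 normoosmotic arrays correlated best with their own number. With only 4 numbers these correlations cannot decide whether samples were paired. With the replicate number as a block 4 members were called, 3 lower and 1 higher, and 256 genes in all. Signal over background was not given, so dim values have no stated floor.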

Other observations

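The 4 hypoosmotic arrays did not share the extremes of the members evenly. Hypoosmotic replicate 4 held the highest of the 4 values in 57 members, or 41.9%, against 28.4% of all genes, and replicate 1 in 39, or 28.7% against 19.5%. Replicates 2 and 3 held it in 11.8% and 15.4%, against 24.2% and 25.1% of all genes. Replicate 3 held the lowest value in 49 members, or 36% against 27.4%. In normoosmotic samples the shares of highest values lay between 22.1% and 27.2% for members and between 22.3% and 25.9% for all genes. Tied values were counted for no array, and these shares are given as a description.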
